A study of Homo sapiens with 6 samples.

Results

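The lysosome is the acidic compartment in which cells break down proteins, sugars, sulfated chains and lipids that arrive by endocytosis or autophagy. Its hydrolases, which include the cathepsins, travel from the Golgi as inactive precursors, largely on mannose 6-phosphate receptors, and mature at the low pH that a V-type proton pump maintains. TFEB and TFE3 are the transcription factors known to raise lysosomal genes together, and they bind an E-box element named CLEAR in many of the promoters. In carcinomas, cathepsins are also known as secreted proteases that cleave matrix and growth factors.

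The group described here holds 40 genes, taken by gene symbol from the 58735 genes of the table: 10 cysteine proteases, 3 other peptidases, 7 glycosidases, 3 sulfatases, 5 lipid hydrolases and lipid-binding cofactors, 5 membrane proteins, 3 proton pump subunits, 2 transcription factors, and progranulin with the autophagy receptor SQSTM1. Measured values were not a criterion for the symbols, but the list was chosen with earlier results of these data known. RNA sequencing was performed on AsPC-1, an established human pancreatic cancer line labelled wild type in all libraries, to compare cells given an empty lentivirus (Vector, n = 3) with cells given an MMP28 lentivirus (OE-MMP28, n = 3). According to the study's methods, the overexpression vector carried GFP and a puromycin resistance gene beside the MMP28 cDNA, and infected cells were kept as a puromycin-selected population. How often the selection and infection were repeated was not given in the sources used here. The study's methods describe independent repeats for cell experiments in general and replicate samples in each group for sequencing, without tying the libraries to separate cultures, so p-values measure the spread between these libraries, which may be technical. The question addressed is how the RNA of lysosomal genes differed when MMP28, a secreted matrix metalloproteinase, was overexpressed.

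Total counts ranged from 13633249 to 14985715 in the Vector and from 15568066 to 16691458 in the OE-MMP28 libraries, without overlap. Mitochondrial genes took between 11.9% and 14.8% of the counts in the Vector and between 8.80% and 11.9% in the OE-MMP28 libraries, with a slight overlap. The part of depth and mitochondrial share in the results was not tested. MMP28 (chr17:35756249-35795707, minus strand) had 5.17, 9.11 and 8.43 FPKM (a level corrected for gene length and library size, so that it can be compared between genes) in the Vector libraries and 13.1, 13.9 and 15.1 in the OE-MMP28 libraries, written here and below in the order of replicates 1, 2 and 3. MMP28 was higher in 3 of 3 OE-MMP28 libraries, and the difference was 1.87-fold (log2 fold change 0.90 ± 0.19 SE, edgeR adjusted p = 0.00226). Here and below a log2 fold change is positive where OE-MMP28 was higher, and the adjusted p comes from the quasi-likelihood test of edgeR, adjusted by the Benjamini-Hochberg method over all genes tested. A two-sided exact permutation test of the FPKM values gave p = 0.1, below which a design of 3 against 3 cannot go. Counts per gene did not separate MMP28 made from the cDNA from that of the cell's own gene. Epithelial markers differed widely in level. EPCAM lay between 260.4 and 327 FPKM and KRT8, KRT18 and KRT19 between 587 and 1455. CLDN4 lay between 55.7 and 132 FPKM, CDH1 between 10.9 and 22.01, and KRT7 was low, between 0.597 and 2.22. The 7 of them summed to between 2674 and 3652 FPKM in the Vector libraries and between 3573 and 4378 in the OE-MMP28 libraries. Of these 7, KRT19 rose by 0.71 on the log2 scale and CDH1 and CLDN4 fell by 0.59 and 0.61 (edgeR adjusted p = 0.00175, 0.0113 and 0.0135), and their part in the results on lysosomal genes was not tested. The 10 macrophage markers summed to between 0.934 and 1.23 FPKM in each library, with CD14 between 0.863 and 1.04 FPKM in the Vector and between 0.569 and 0.738 FPKM in the OE-MMP28 libraries and CD68 and AIF1 at most 0.259 and 0.198 FPKM, and PTPRC, CD163, TYROBP and FCGR3A were each at or under 0.0221 FPKM. The 5 endothelial markers summed to at most 0.293 FPKM, with PECAM1 at most 0.0381 FPKM in the Vector libraries and between 0.106 and 0.230 FPKM in the OE-MMP28 libraries. Of the 6 fibroblast markers only LUM was above 0.1 FPKM, and its level was high. LUM lay between 33.8 and 40.9 FPKM in the Vector and between 39.2 and 56.9 FPKM in the OE-MMP28 libraries. RNA of bulk samples cannot separate fewer cells of a type from less RNA per cell.

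The CLEAR element was first described in promoters of lysosomal genes, and 3 such promoters are printed here. The stretches run from 130 bases before to 10 bases after the RefSeq transcription start on GRCh38.p14, plus strand, with each copy of TCACGTGA, the core of the CLEAR element, in capitals. These promoters were chosen because each holds 2 copies.
LAMP1, chr13:113297109-113297248: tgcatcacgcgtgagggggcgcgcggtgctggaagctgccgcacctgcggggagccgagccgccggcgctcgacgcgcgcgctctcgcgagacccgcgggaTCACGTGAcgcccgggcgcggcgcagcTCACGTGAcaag
GAA, chr17:80101451-80101590: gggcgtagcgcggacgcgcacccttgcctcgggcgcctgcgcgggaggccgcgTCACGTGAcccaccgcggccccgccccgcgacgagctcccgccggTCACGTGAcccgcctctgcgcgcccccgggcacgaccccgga
MCOLN1, chr19:7522494-7522633: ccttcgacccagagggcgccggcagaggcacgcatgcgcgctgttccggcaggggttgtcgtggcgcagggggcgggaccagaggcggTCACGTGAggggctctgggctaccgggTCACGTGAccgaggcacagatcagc
LAMP1 rose in OE-MMP28, GAA fell, and MCOLN1 had a log2 fold change of -0.075 and did not pass the test, as described with their values below.

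All 40 members passed the filter on low counts among 15319 genes tested. At an edgeR adjusted p under 0.05, 6 members rose and 7 fell. That is 15% of the members higher and 17.5% lower, beside 11.7% higher and 11.6% lower over all genes tested. The median log2 fold change of the members was 0.02, and that of all genes tested was 0.01. FPKM of the 2 groups did not overlap for 20 members, or 50%, against 38.1% of all genes tested. The members did not move in 1 direction, since 21 had a positive (52.5%) and 19 a negative log2 fold change. Over all genes tested 51.2% were positive. Of the 9 role groups, 8 held members of both signs. Some of these signs belong to values near 0, and 14 members changed sign in at least 1 alternative fit. At the thresholds the study states, an absolute log2 fold change over 1 and a p under 0.05 that is read here as unadjusted, NEU1 passed as higher (3.45% of all genes tested did) and CTSF and CTSK as lower (5.05% did). Upper-quartile scaling moved the split to 5 higher and 10 lower, beside 1541 higher and 2016 lower over all genes tested, whose median moved to -0.03. Without OE-MMP28 replicate 2, 3 members were higher and 3 lower, beside 985 and 1044 of the 15700 genes tested in that fit. Without OE-MMP28 replicate 3 the members again numbered 3 and 3, beside 1376 and 1283 of 15678 genes. The reported fit called 1795 and 1784 of 15319 genes. CTSC, CTSF and CTSK were past the threshold in each of the 6 fits without one library. So was NEU1, which the filter on low counts kept through the OE-MMP28 libraries alone.

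**Figure D1:**
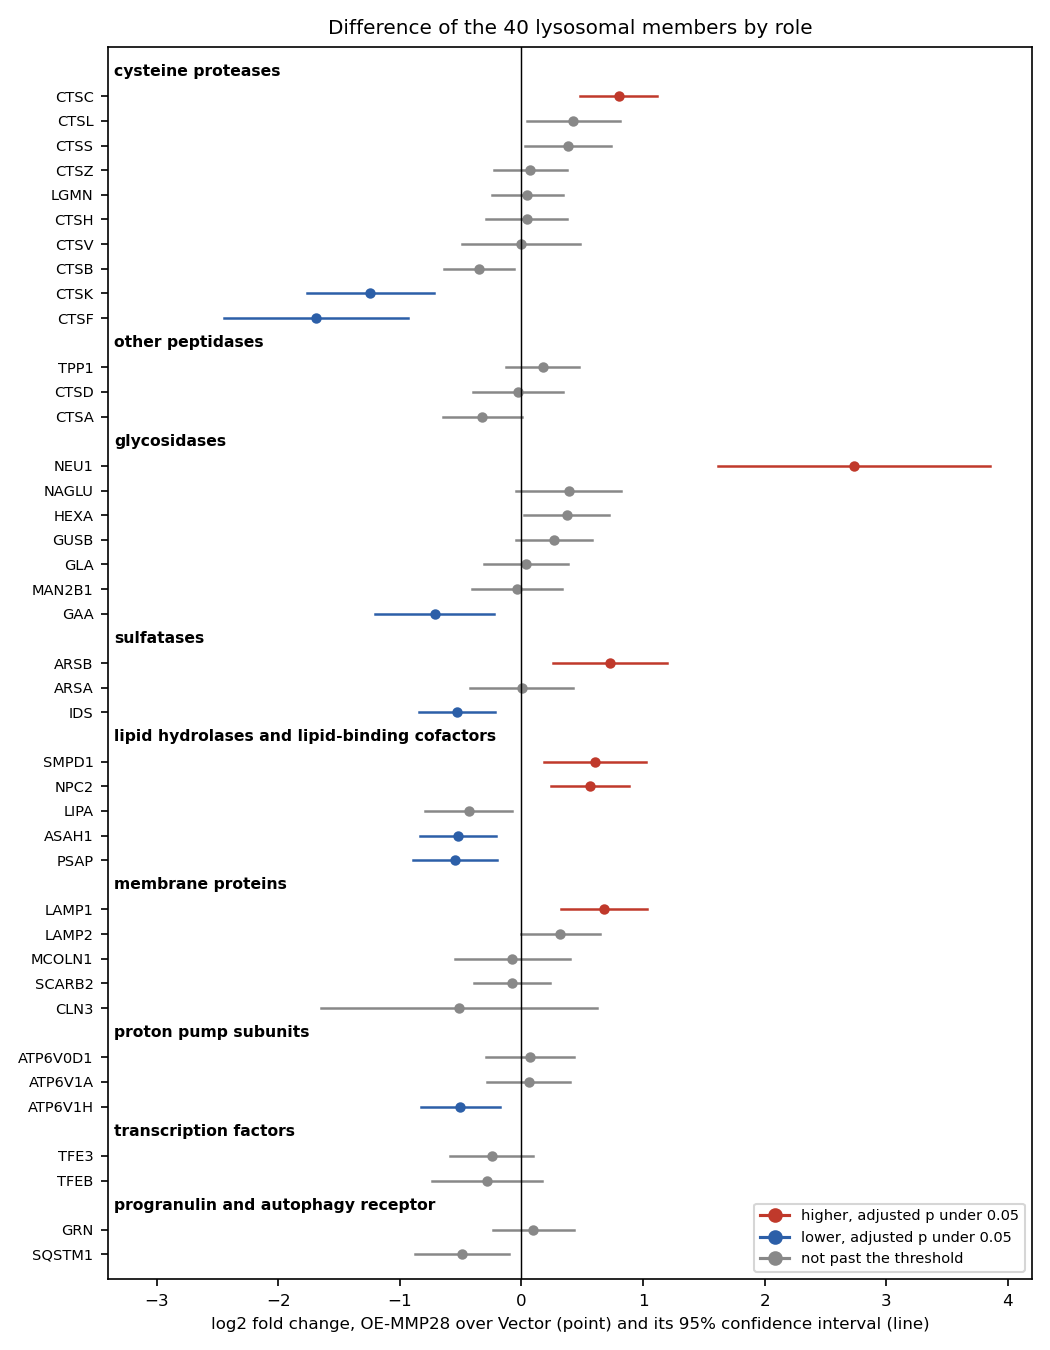
Log2 fold change of each member (point) with its 95% confidence interval (line), grouped by role, positive where OE-MMP28 was above Vector. The 6 red members rose and the 7 blue members fell at an edgeR adjusted p under 0.05, from -1.69 for CTSF to 2.73 for NEU1, which rests on 10 counts in the Vector group.

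Levels of the members covered over 3 orders of magnitude. PSAP, the precursor of the saposins that present sphingolipids to their hydrolases, was the most abundant at a mean of 209.6 FPKM over the 6 libraries. It was followed by CTSZ at 93.4, SQSTM1 at 76.7, CTSA at 68.1 and CTSB at 67.5 FPKM by the same measure. The range of SQSTM1, from 57.2 to 115 FPKM, took in all libraries of CTSZ and CTSB, and the lowest library of CTSZ, at 85.3, lay above the highest of CTSB, at 78.8. In all, 5 members were at or above 50 FPKM, 13 between 10 and 50, 18 between 1 and 10, and 4 below 1, namely ARSB, CTSF, NEU1 and CLN3. Summed FPKM of the 40 members were 952, 1061 and 854 in the Vector libraries and 819, 896 and 857 in the OE-MMP28 libraries, so the groups overlapped. The members' share of all counts lay between 0.391% and 0.504%.

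**Figure D2:**
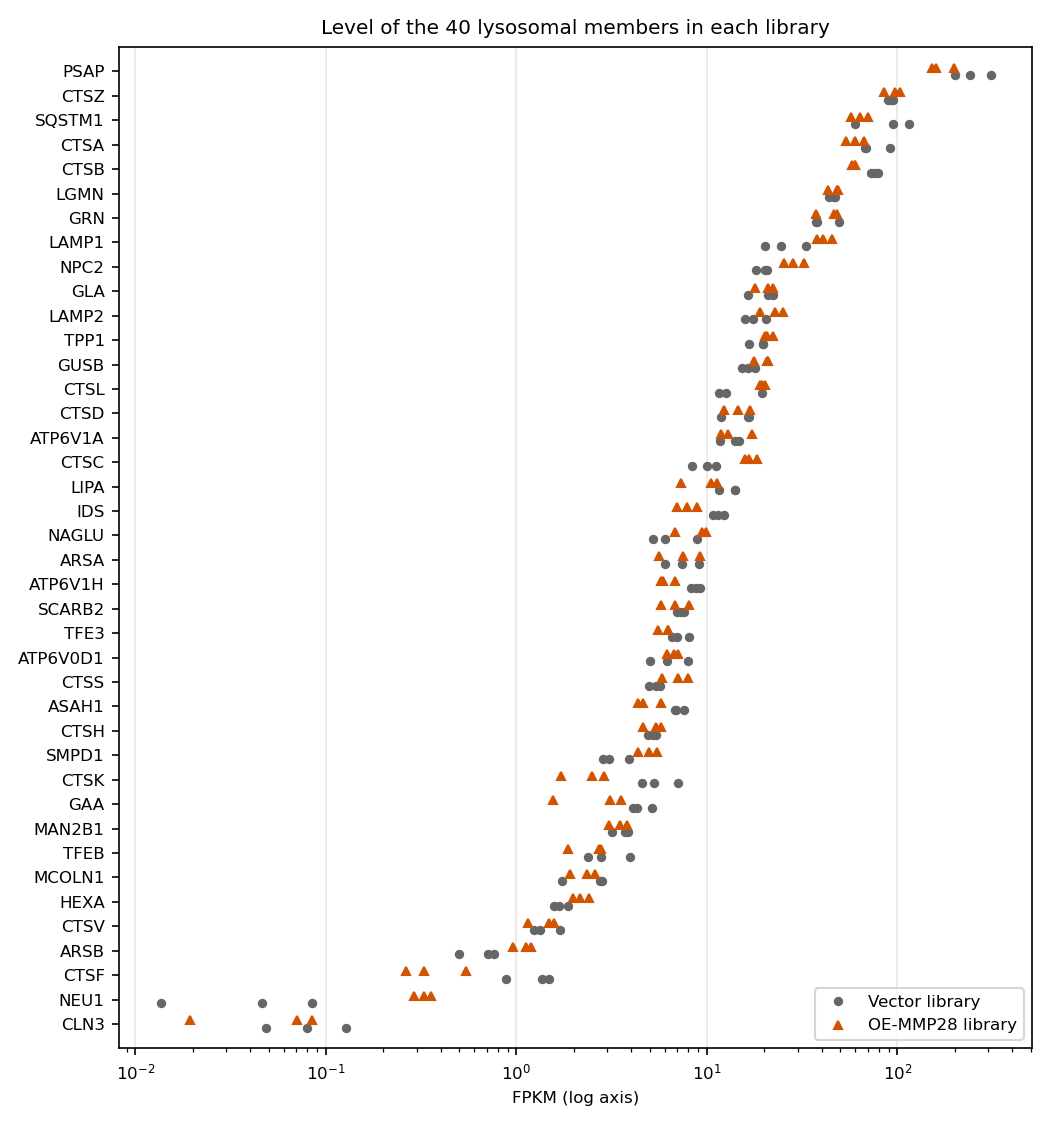
FPKM of the 40 members on a log axis, ordered by their mean, with 3 Vector libraries (circles) and 3 OE-MMP28 libraries (triangles) per gene. PSAP sits highest and CLN3 and NEU1 lowest by their means of 0.0716 and 0.186 FPKM.

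Neither transcription factor differed past the threshold. TFEB (ENSG00000112561, chr6:41683978-41736259, minus strand) had 2.36, 3.94 and 2.78 FPKM in the Vector libraries and 1.86, 2.71 and 2.79 in the OE-MMP28 libraries. The groups overlapped, and the log2 fold change of -0.29 ± 0.22 SE had a 95% interval from -0.74 to 0.17 (edgeR adjusted p = 0.368). TFE3 (ENSG00000068323, chrX:49028726-49043486, minus strand) was at 6.95, 8.03 and 6.56 FPKM in the Vector libraries and 5.57, 6.24 and 6.23 in the OE-MMP28 libraries. All OE-MMP28 libraries lay below all Vector libraries, but by a log2 fold change of -0.24 with an interval from -0.58 to 0.098 (edgeR adjusted p = 0.303). Activity of both factors is known to be set by phosphorylation and nuclear entry, which RNA levels do not measure.

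Of the 10 cysteine proteases, CTSC rose, CTSF and CTSK fell, and 7 did not pass the test. CTSC (ENSG00000109861, chr11:88293592-88337787, minus strand) encodes dipeptidyl peptidase I, which activates serine proteases of granules. Its FPKM were 10.03, 11.1 and 8.38 in the Vector libraries and 18.4, 15.9 and 16.6 in the OE-MMP28 libraries. Every OE-MMP28 library was above every Vector library, by 1.74-fold (log2 fold change 0.80 ± 0.15 SE, edgeR adjusted p = 0.000794). The tested genes within 5 Mb of CTSC had a median log2 fold change of 0.54, and relative to that median its own difference was 0.26 (edgeR adjusted p = 0.259). CTSK (ENSG00000143387, chr1:150796208-150808323, minus strand) is the collagen-cleaving cathepsin best known from osteoclasts. Vector libraries held 4.58, 5.29 and 7.05 FPKM and OE-MMP28 libraries 2.48, 1.70 and 2.90 FPKM. The groups did not overlap and CTSK was 2.37-fold lower in OE-MMP28 (log2 fold change -1.24 ± 0.25 SE, edgeR adjusted p = 0.00133). CTSF (ENSG00000174080, chr11:66563463-66568841, minus strand), a cathepsin with an unusually long propeptide, was a low-level gene with 0.881, 1.35 and 1.48 FPKM in the Vector libraries and 0.262, 0.545 and 0.328 in the OE-MMP28 libraries, from 39, 53 and 63 against 12, 25 and 16 counts. It was 3.22-fold lower (log2 fold change -1.69 ± 0.36 SE, edgeR adjusted p = 0.00228), with no overlap between the groups. Relative to their neighbours the log2 fold changes were -1.95 for CTSF and -1.26 for CTSK (edgeR adjusted p = 0.00104 and 0.00175).

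CTSS, the cathepsin of antigen presentation, lies close to CTSK on chromosome 1 and had a difference of the opposite sign. At a log2 fold change of 0.38 ± 0.17 SE it did not pass (edgeR adjusted p = 0.108), although its groups did not overlap. CTSB (ENSG00000164733, chr8:11842524-11869448, minus strand), an endopeptidase and carboxypeptidase that tumours often secrete, had 72.9, 75.9 and 78.8 FPKM in the Vector libraries and 57.6, 59.9 and 59.99 in the OE-MMP28 libraries. All OE-MMP28 libraries were lower, with a log2 fold change of -0.35 ± 0.14 SE, and the adjusted p of 0.0711 missed the threshold in the edgeR test. It passed with DESeq2 (adjusted p = 0.0224), with upper-quartile scaling (edgeR adjusted p = 0.0408) and with the stricter filter (edgeR adjusted p = 0.0489). In 14 of the 17 alternative fits CTSB did not pass. Its neighbour median was -0.40, and relative to it the log2 fold change of CTSB was 0.054 (edgeR adjusted p = 0.837). CTSL (ENSG00000135047, chr9:87725519-87731393, plus strand), a broad endopeptidase, stood at 19.5, 11.6 and 12.6 FPKM in the Vector libraries and 19.4, 18.9 and 20.1 in the OE-MMP28 libraries. Vector replicate 1 was as high as the OE-MMP28 libraries and the other two Vector libraries were lower. The log2 fold change was 0.43 ± 0.18 SE (edgeR adjusted p = 0.0995), and without Vector replicate 1 it was 0.69 (edgeR adjusted p = 0.00661). CTSH, CTSV, CTSZ and LGMN, the asparaginyl endopeptidase that processes other cathepsins, had log2 fold changes between -0.0044 and 0.071, and the groups overlapped for each. Taken as a share of the summed FPKM of the 10 proteases, CTSB made up 29.6% ± 1.19 in Vector and 23.3% ± 0.274 in OE-MMP28 (each SD, n = 3), and CTSC made up 3.83% ± 0.510 and 6.69% ± 0.659, while the sum itself lay between 255.1 and 259 FPKM in the Vector libraries and between 247 and 260.9 FPKM in the OE-MMP28 libraries.

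The other 3 peptidases did not pass the test. CTSD (ENSG00000117984, chr11:1752752-1764573, minus strand), the main aspartic protease of the lysosome, had 16.5, 16.6 and 11.8 FPKM in the Vector libraries and 12.3, 14.5 and 16.9 in the OE-MMP28 libraries. The groups overlapped, the log2 fold change was -0.028 ± 0.18 SE and its interval ran from -0.40 to 0.34 (edgeR adjusted p = 0.932). In the annotation 41.7% of the exon length of CTSD is shared with another gene on the same strand, AC068580.4, and how reads there were assigned was not given in the sources used here. CTSA, the carboxypeptidase that also protects the sialidase NEU1 and beta-galactosidase, had a log2 fold change of -0.32 ± 0.16 SE, and TPP1, a tripeptidyl peptidase, one of 0.18 ± 0.14 SE (edgeR adjusted p = 0.146 and 0.409). Neither gene's groups overlapped, CTSA being lower and TPP1 higher in OE-MMP28.

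Among the 7 glycosidases, which trim sugars from glycoproteins, glycolipids and glycogen, NEU1 rose and GAA fell. NEU1 (ENSG00000204386, chr6:31857659-31862906, minus strand) is the lysosomal sialidase. Its counts were 1, 3 and 6 in the Vector libraries and 22, 25 and 29 in the OE-MMP28 libraries, or 0.0136, 0.0460 and 0.0844 against 0.288, 0.327 and 0.357 FPKM. All OE-MMP28 libraries were above all Vector libraries, at a low level in both groups, and NEU1 passed the filter on low counts through the OE-MMP28 libraries alone. Pooled over the libraries of a group, 10 counts stood against 76, a ratio of 6.78 with an exact 95% interval from 3.49 to 14.7 that covers counting error only. The fitted log2 fold change was 2.73 ± 0.54 SE (edgeR adjusted p = 0.00112). Because the filter kept NEU1 through the group in which it was higher, its passing in fits that use that filter is not separate support. With no filter on low counts the edgeR adjusted p was 3.93e-05. That fit rests on the same 10 against 76 counts, so it is not separate support either. The stricter filter removed NEU1, which was therefore not tested in that fit. How reads that match several places were counted was not given in the sources used here, so the level of NEU1 in both groups is uncertain. GAA (ENSG00000171298, chr17:80101556-80119879, plus strand) cleaves glycogen. It had 4.10, 5.18 and 4.32 FPKM in the Vector libraries and 1.56, 3.10 and 3.54 in the OE-MMP28 libraries. The groups did not overlap, and OE-MMP28 replicate 1 was the lowest of all libraries. GAA was 1.64-fold lower (log2 fold change -0.71 ± 0.23 SE, edgeR adjusted p = 0.0326), and the edgeR adjusted p became 0.0937 without OE-MMP28 replicate 1, 0.0579 without OE-MMP28 replicate 2 and 0.0679 without Vector replicate 2. With limma on log2(FPKM + 1) the adjusted p was 0.103. HEXA, GUSB, NAGLU, GLA and MAN2B1 did not pass the test, with log2 fold changes from -0.038 for MAN2B1 to 0.39 for NAGLU. HEXA, the alpha subunit of hexosaminidase, was the one of these 5 whose groups did not overlap, at 1.67, 1.57 and 1.87 FPKM in the Vector and 1.98, 2.16 and 2.42 FPKM in the OE-MMP28 libraries. GUSB, a beta-glucuronidase, passed relative to its neighbours, whose median was -0.24, with 0.51 (edgeR adjusted p = 0.0283).

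The 3 sulfatases remove sulfate from glycosaminoglycans and sulfatide, and 1 rose, 1 fell and 1 did not pass. ARSB (ENSG00000113273, chr5:78777209-78986087, minus strand), which acts on dermatan and chondroitin sulfate, had 0.766, 0.499 and 0.712 FPKM in the Vector libraries and 1.19, 0.955 and 1.12 in the OE-MMP28 libraries. Each OE-MMP28 library exceeded each Vector library, by 1.66-fold (log2 fold change 0.73 ± 0.23 SE, edgeR adjusted p = 0.0235). This call was lost with an edgeR adjusted p of 0.069 without OE-MMP28 replicate 1, 0.0505 without OE-MMP28 replicate 2, 0.0725 without OE-MMP28 replicate 3 and 0.0952 without Vector replicate 2, and with limma on log2(FPKM + 1) at 0.161. IDS (ENSG00000010404, chrX:149476990-149521096, minus strand), which acts on heparan and dermatan sulfate, moved the other way, from 10.8, 12.3 and 11.4 FPKM in the Vector libraries to 8.83, 7.88 and 6.97 FPKM in the OE-MMP28 libraries. The groups did not overlap and the fall was 1.45-fold (log2 fold change -0.53 ± 0.15 SE, edgeR adjusted p = 0.0136). The edgeR adjusted p of IDS was 0.0651 without OE-MMP28 replicate 2, 0.0563 without OE-MMP28 replicate 3 and 0.0565 without Vector replicate 3. Exons of IDS share 16.5% of their length with AC244197.3 on the same strand. ARSA, which acts on sulfatide, had a log2 fold change of 0.00094 ± 0.20 SE, with an interval from -0.42 to 0.42.

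Lipid hydrolases and their cofactors split, with SMPD1 and NPC2 higher, PSAP and ASAH1 lower, and LIPA not past the threshold. FPKM of the 2 groups did not overlap for any of the 5, nor for 38.1% of all genes tested. PSAP (ENSG00000197746, chr10:71816298-71851375, minus strand) was at 240.3, 308 and 200.3 FPKM in the Vector libraries and 159, 197 and 153 in the OE-MMP28 libraries. OE-MMP28 replicate 2 lay just below the lowest Vector library. PSAP was 1.46-fold lower (log2 fold change -0.55 ± 0.17 SE, edgeR adjusted p = 0.0213), and the edgeR adjusted p became 0.0715 without OE-MMP28 replicate 1, 0.0923 without OE-MMP28 replicate 3 and 0.103 without Vector replicate 2. ASAH1 (ENSG00000104763, chr8:18055992-18084998, minus strand), the acid ceramidase, had 7.61, 6.79 and 6.87 FPKM in the Vector libraries and 5.74, 4.63 and 4.34 FPKM in the OE-MMP28 libraries. It was 1.44-fold lower (log2 fold change -0.52 ± 0.15 SE, edgeR adjusted p = 0.0166), and the edgeR adjusted p was 0.0935 without OE-MMP28 replicate 2, 0.0675 without OE-MMP28 replicate 3 and 0.0547 without Vector replicate 3. SMPD1 (ENSG00000166311, chr11:6390431-6394998, plus strand), the acid sphingomyelinase that makes ceramide, was higher in every OE-MMP28 library, with 4.37, 4.95 and 5.45 FPKM against 3.88, 3.07 and 2.84 FPKM. The rise was 1.52-fold (log2 fold change 0.61 ± 0.20 SE, edgeR adjusted p = 0.0346) and the edgeR adjusted p became 0.12 without OE-MMP28 replicate 2, 0.121 without OE-MMP28 replicate 3, 0.0796 without Vector replicate 2 and 0.159 without Vector replicate 3. It also missed the threshold with upper-quartile scaling and with no filter on low counts (edgeR adjusted p = 0.0516 and 0.0515).

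NPC2 (ENSG00000119655, chr14:74476192-74494177, minus strand) carries cholesterol out of the lysosomal lumen. It had 20.6, 20.1 and 18.2 FPKM in the Vector libraries and 28.2, 25.5 and 32.5 in the OE-MMP28 libraries. The groups did not overlap and the rise was 1.48-fold (log2 fold change 0.56 ± 0.15 SE, edgeR adjusted p = 0.0119). The edgeR adjusted p of NPC2 became 0.0548 without OE-MMP28 replicate 3 and 0.0801 without Vector replicate 3. LIPA, the acid lipase that splits cholesteryl esters, had a log2 fold change of -0.43 ± 0.17 SE (edgeR adjusted p = 0.0735). Of the 4 called genes, PSAP, ASAH1 and NPC2 had neighbours that moved the same way, with medians within 5 Mb of -0.44, -0.31 and 0.61. Relative to those medians their differences were -0.11, -0.21 and -0.048, and none passed the threshold (edgeR adjusted p = 0.712, 0.372 and 0.876). SMPD1 had a neighbour median of 0.018 and 0.59 relative to it (edgeR adjusted p = 0.0538). With limma on log2(FPKM + 1) the adjusted p was 0.0883 for PSAP, 0.0524 for ASAH1 and 0.0564 for SMPD1.

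Of the 5 membrane proteins, LAMP1 rose and 4 did not pass the test. LAMP1 (ENSG00000185896, chr13:113297241-113323672, plus strand) is a widely used marker of the lysosomal membrane. FPKM of LAMP1 were 33.3, 20.3 and 24.4 in the Vector libraries and 40.9, 45.4 and 37.8 in the OE-MMP28 libraries. Vector replicate 1 was the highest of its group and still below every OE-MMP28 library, and the difference was 1.61-fold (log2 fold change 0.68 ± 0.17 SE, edgeR adjusted p = 0.00641). Without OE-MMP28 replicate 2 the edgeR adjusted p was 0.0529, and relative to its neighbours the log2 fold change was 0.73 (edgeR adjusted p = 0.00579). LAMP2 (ENSG00000005893, chrX:120427827-120469365, minus strand), its companion in the membrane and the receptor of chaperone-mediated autophagy, had 20.5, 15.8 and 17.5 FPKM in the Vector libraries and 24.96, 22.8 and 18.9 FPKM in the OE-MMP28 libraries. The groups overlapped, and the log2 fold change of 0.32 ± 0.16 SE had an interval from -0.0036 to 0.64 (edgeR adjusted p = 0.144). SCARB2, the receptor that carries glucocerebrosidase, and MCOLN1, a calcium channel of the lysosomal membrane, had log2 fold changes of -0.079 ± 0.15 SE and -0.075 ± 0.23 SE. CLN3 had 12, 17 and 7 counts in the Vector libraries and 3, 11 and 14 in the OE-MMP28 libraries, so its log2 fold change of -0.51 ± 0.55 SE was poorly determined at this depth. The annotation shares 25.2% of the exon length of CLN3 with AC138894.1 on the same strand.

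Of the 3 subunits of the proton pump, ATP6V1H fell. ATP6V1H (ENSG00000047249, chr8:53715557-53843558, minus strand) encodes the regulatory H subunit of the part of the pump that splits ATP. Vector libraries had 9.15, 8.27 and 8.81 FPKM and OE-MMP28 libraries 6.82, 5.86 and 5.72 FPKM. The groups did not overlap, and it was 1.42-fold lower (log2 fold change -0.50 ± 0.16 SE, edgeR adjusted p = 0.0244). The edgeR adjusted p was 0.114 without OE-MMP28 replicate 2, 0.0744 without OE-MMP28 replicate 3, 0.0577 without Vector replicate 1 and 0.0947 without Vector replicate 3, and 0.586 relative to its neighbours, whose median log2 fold change was -0.36. ATP6V0D1 and ATP6V1A had log2 fold changes of 0.070 ± 0.17 SE and 0.059 ± 0.16 SE, and their groups overlapped.

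GRN (ENSG00000030582, chr17:44345086-44353102, plus strand) encodes progranulin, a secreted protein that is cut into granulins in the lysosome. Its levels were 37.8, 49.6 and 37.3 FPKM in the Vector libraries and 37.4, 48.2 and 46.7 in the OE-MMP28 libraries. The groups overlapped, with a log2 fold change of 0.099 ± 0.16 SE and an interval from -0.24 to 0.43 (edgeR adjusted p = 0.701). SQSTM1 (ENSG00000161011, chr5:179806398-179838078, plus strand) encodes p62, which carries ubiquitinated cargo into autophagosomes. It stood at 94.9, 115 and 60.1 FPKM in the Vector libraries and 57.2, 69.8 and 63.4 FPKM in the OE-MMP28 libraries. Vector replicates 1 and 2 were above all OE-MMP28 libraries, and Vector replicate 3 lay among them. Its log2 fold change was -0.49 ± 0.18 SE (edgeR adjusted p = 0.0601), and without Vector replicate 3 it was -0.71 (edgeR adjusted p = 0.0077). It also passed with median-ratio scaling, upper-quartile scaling and no filter on low counts (edgeR adjusted p = 0.0483, 0.0423 and 0.0141). Exons of MRNIP on the other strand cover 20.7% of the exon length of SQSTM1, and whether the counting used the strand was not given.

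**Figure D3:**
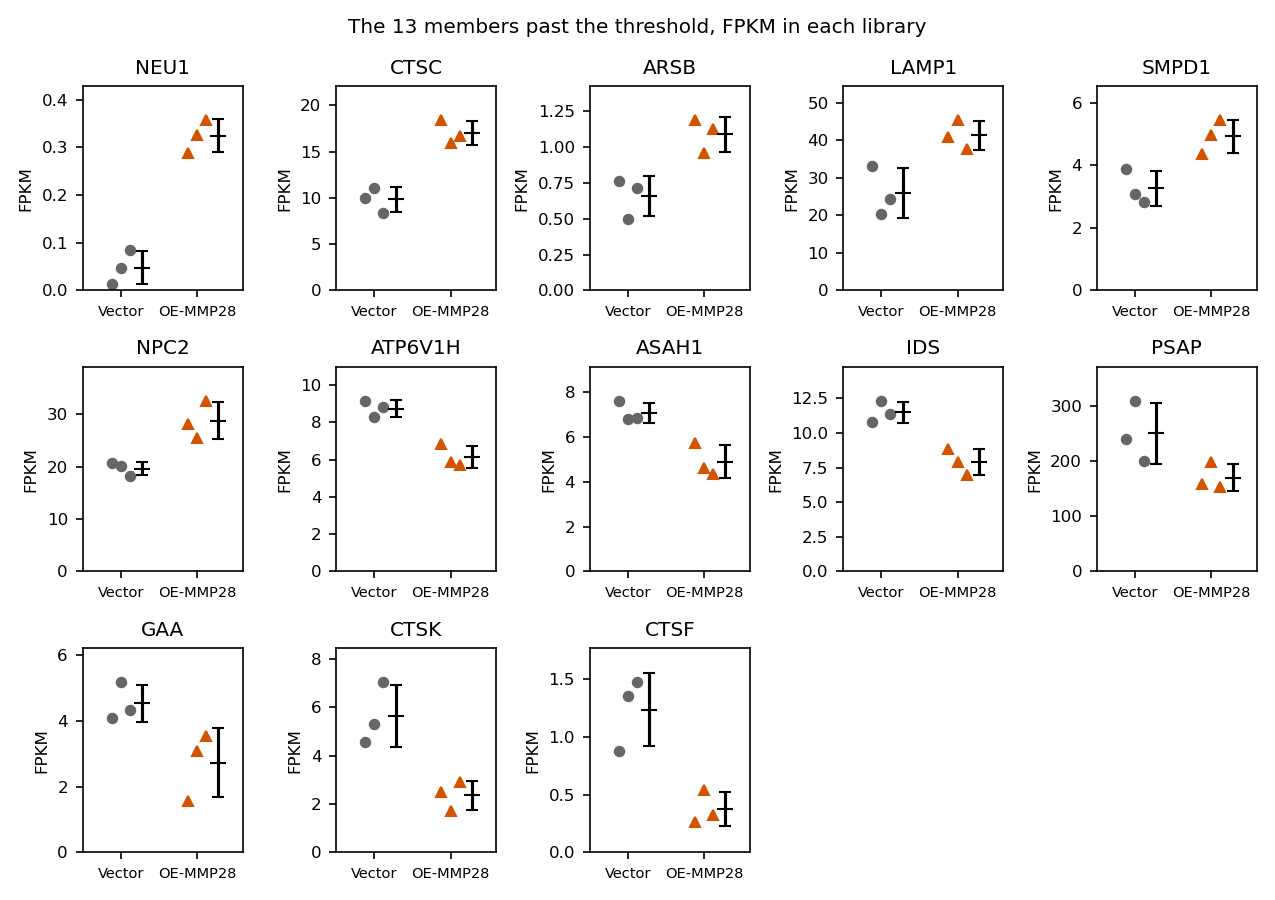
FPKM of the 13 members past the threshold in each Vector library (circles) and OE-MMP28 library (triangles), with the group mean and SD (n = 3) beside the points and every axis starting at 0. In all 13 panels the 2 groups do not overlap. The 13 were chosen by adjusted p from these same libraries, so this is not separate support. Of all genes tested, 38.1% did not overlap either. NEU1, ARSB and CTSF lie at the lowest levels.

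Position on the chromosomes was examined because several members shared their difference with the genes around them. The median log2 fold change of the other tested genes within 5 Mb was at or beyond 0.3 in size for 10 of the 40 members, or 25%, and for 24.0% of the 15219 tested genes with at least 10 neighbours. The 3 members on chromosome 8, CTSB, ASAH1 and ATP6V1H, had neighbour medians of -0.40, -0.31 and -0.36, the windows of CTSB and ASAH1 overlapping, and all 3 had negative log2 fold changes. Both members on chromosome 10, PSAP and LIPA, had neighbour medians of -0.44 and -0.47 and negative log2 fold changes. On chromosome 14, NPC2 and LGMN had neighbour medians of 0.61 and 0.63. NPC2 followed its neighbours, but LGMN did not: its own log2 fold change was 0.046, which gave -0.58 relative to the median (edgeR adjusted p = 0.00795). With the neighbour median subtracted for every gene, 4 members were higher and 5 lower at an edgeR adjusted p under 0.05, or 10% and 12.5%, beside 7.42% and 8.02% of all genes tested. NEU1, ARSB, LAMP1, CTSF, CTSK, GAA and IDS were called in both fits. CTSC, SMPD1, NPC2, PSAP, ASAH1 and ATP6V1H were not called in the second, and LGMN and GUSB were called only there. The neighbour median came from the same libraries and was entered as a fixed value. The p-values relative to neighbours therefore leave out the error of that median. What the neighbouring genes have in common with the members was not tested.

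**Figure D4:**
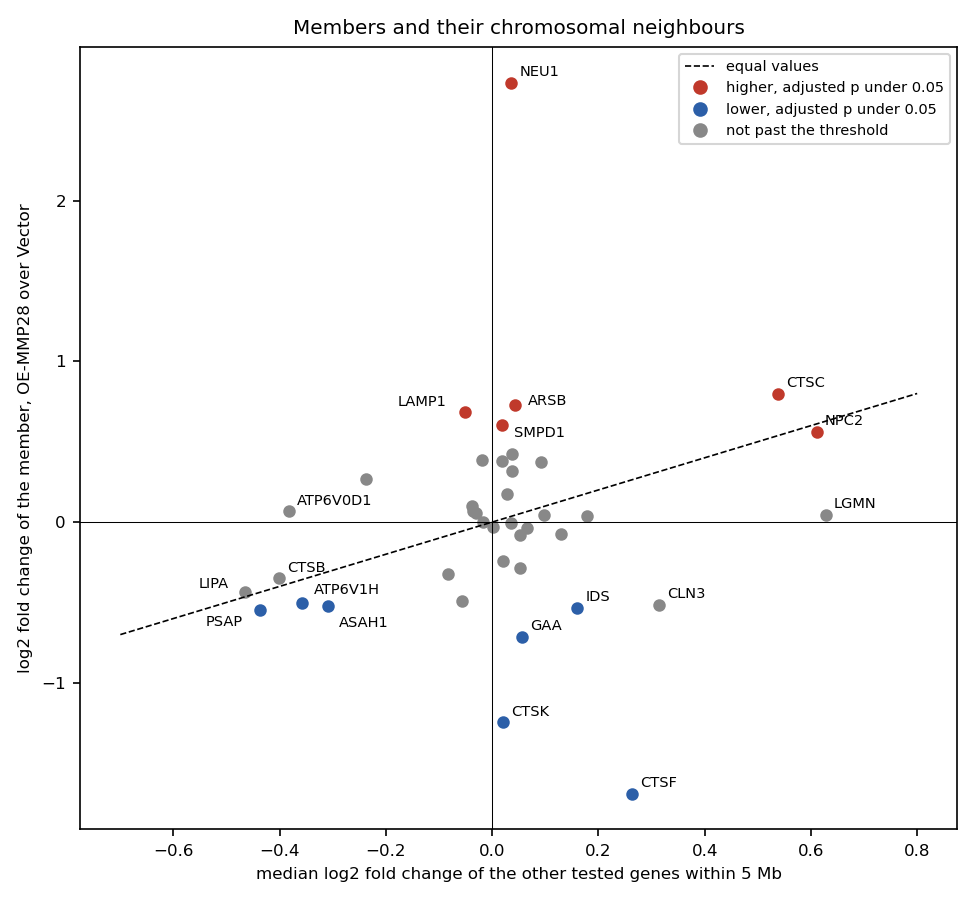
Log2 fold change of each member against the median log2 fold change of the other tested genes within 5 Mb of it, with the line of equal values dashed. PSAP, ASAH1, ATP6V1H, LIPA and CTSB lie near the line at the lower left and NPC2 and CTSC at the upper right, whereas NEU1, LAMP1, ARSB, SMPD1, CTSK and GAA have neighbour medians between -0.05 and 0.06.

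Promoter sequences, running from 250 bases before to 50 bases after the start, were in the RefSeq table (GRCh38.p14) for 28 of the 40 members, in 37 entries. TCACGTGA, a palindrome that reads the same on both strands, was found in 7 of the 37 entries (18.9%), belonging to 6 genes, against 0.980% of all 35116 promoters. The E-box CACGTG, which lies inside it, was found in 11 of the 37 (29.7%), against 7.26% of all promoters. CLN3 entered both counts through more than 1 entry. Because the CLEAR element was first described in promoters of lysosomal genes, its higher share in the members is not a result of these data. The 6 genes with the longer motif were LAMP1, GAA, MCOLN1, CLN3, ATP6V0D1 and CTSA, so 1 rose, 1 fell and 4 did not pass the test. In LAMP1 the motif began 29 and 2 bases before the start, in GAA 77 and 32, and in MCOLN1 42 and 15. NEU1, CTSF, ARSB and CTSD held the E-box without the longer motif, at 126 bases before the start in NEU1 and at 123 and 51 in CTSF. CTSC held neither motif, and CTSK had no entry in the table.

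A further 7 lists, taken from general knowledge of the pathway, held 117 genes, of which 110 were tested. In all, 12 rose (10.9%) and 15 fell (13.6%), beside the same 11.7% and 11.6% over all genes. With the neighbour median subtracted, 3 rose and 8 fell, beside 7.42% and 8.02% of all genes tested. Without OE-MMP28 replicate 2 there were 7 and 8, beside 985 and 1044 of 15700 genes tested.

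Of 22 other hydrolases and cofactors, 4 rose (18.2%) and 2 fell (9.09%), with a median log2 fold change of 0.15. GALC, the galactosylceramidase, rose from 12.9, 14.4 and 15.1 FPKM in the Vector libraries to 32.2, 32.8 and 21.2 FPKM in the OE-MMP28 libraries (log2 fold change 1.03 ± 0.17 SE, edgeR adjusted p = 0.000211). SIAE, a sialate esterase, rose by 0.76 on the log2 scale, while HGSNAT, an acetyltransferase of heparan sulfate breakdown on chromosome 8, fell by 0.76 (edgeR adjusted p = 0.00243 and 0.00216). The neighbour medians of GALC, SIAE and HGSNAT were 0.52, 0.53 and -0.33, and relative to them SIAE and HGSNAT did not pass (edgeR adjusted p = 0.382 and 0.0813). Exons of TBRG1 on the other strand cover 28.1% of those of SIAE.

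Of 13 other pump subunits, 2 rose (15.4%) and none fell. ATP6V1D rose by 0.75 and ATP6V0B by 0.53 on the log2 scale (edgeR adjusted p = 0.00147 and 0.0448). The groups overlapped for ATP6V0B, whose edgeR adjusted p became 0.161 without OE-MMP28 replicate 2, 0.191 without OE-MMP28 replicate 3, 0.145 without Vector replicate 2 and 0.138 without Vector replicate 3, and ATP6V1D did not pass relative to its neighbours (0.0921). Of 18 other membrane proteins and transporters, 1 rose (5.56%) and 2 fell (11.1%). MFSD1 rose by 0.56 and LAPTM4A and LAPTM4B fell by 0.71 and 0.47 on the log2 scale (edgeR adjusted p = 0.0142, 0.00159 and 0.0247). All 3 had neighbours that moved the same way, with medians of 0.57, -0.51 and -0.26, and none passed relative to them (edgeR adjusted p = 0.99, 0.388 and 0.359). The edgeR adjusted p of LAPTM4B was also 0.0533 without OE-MMP28 replicate 2, 0.0827 without OE-MMP28 replicate 3, 0.071 without Vector replicate 1 and 0.111 without Vector replicate 3, and that of MFSD1 0.053 without OE-MMP28 replicate 2 and 0.0504 without Vector replicate 2.

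Of 12 genes that sort lysosomal enzymes, SORT1 fell and GNPTG rose (8.33% each). SORT1 encodes sortilin, a Golgi receptor that carries prosaposin and acid sphingomyelinase, the products of the members PSAP and SMPD1, among other cargo. It had 2.05, 2.15 and 2.36 FPKM in the Vector libraries and 0.690, 0.799 and 0.701 in the OE-MMP28 libraries. The groups were far apart, a 2.97-fold difference (log2 fold change -1.57 ± 0.19 SE, edgeR adjusted p = 8.15e-06) that passed in all 17 alternative fits. GNPTG, a subunit of the enzyme that starts the mannose 6-phosphate tag, rose by 0.68 (edgeR adjusted p = 0.00564, and 0.083 relative to its neighbours), and exons of UNKL on the other strand cover 22.2% of those of GNPTG. Of 19 tested genes that control mTORC1 and TFEB, 1 rose (5.26%) and 2 fell (10.5%). LAMTOR1 of the Ragulator complex rose by 0.71, and RRAGD, a Rag GTPase, and PPP3CB, a calcineurin subunit, fell by 0.81 and 0.53 (edgeR adjusted p = 0.00282, 0.0236 and 0.0267). Relative to their neighbours only RRAGD passed of these 3 (edgeR adjusted p = 0.0128, against 0.231 for LAMTOR1 and 0.764 for PPP3CB). The edgeR adjusted p of RRAGD became 0.0681 without OE-MMP28 replicate 2, 0.0919 without OE-MMP28 replicate 3 and 0.109 without Vector replicate 3, and that of PPP3CB 0.136 without OE-MMP28 replicate 2, 0.0923 without OE-MMP28 replicate 3, 0.0876 without Vector replicate 2 and 0.0877 without Vector replicate 3. MITF and TFEC, the other members of the TFEB family, did not pass the filter on low counts. Of the 7 cystatins, inhibitors of cysteine cathepsins, CST3 and CSTB were tested, with log2 fold changes of 0.12 and 0.13, and neither passed (edgeR adjusted p = 0.66 and 0.584).

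Among 24 genes of the autophagy machinery, 3 rose (12.5%) and 8 fell (33.3%), beside 11.7% and 11.6% over all genes tested. The median log2 fold change was -0.32. ATG7, RAB7A and UVRAG rose by 0.61, 0.55 and 0.53 on the log2 scale (edgeR adjusted p = 0.0113, 0.00953 and 0.0235). They passed in 15, 14 and 10 of the 17 alternative fits. Of these 3, only ATG7 passed relative to its neighbours (edgeR adjusted p = 0.0259, against 0.865 for RAB7A and 0.518 for UVRAG). MAP1LC3B, the LC3 protein that coats autophagosomes, fell from 18.2, 19.01 and 17.8 FPKM in the Vector libraries to 9.57, 7.82 and 8.18 FPKM in the OE-MMP28 libraries. GABARAPL1, of the same ubiquitin-like family, fell from 8.004, 5.79 and 5.98 to 2.89, 3.01 and 2.69 FPKM, and the groups did not overlap for either gene. OPTN, an autophagy receptor like SQSTM1, fell from 41.6, 63.9 and 38.9 to 21.2, 19.3 and 18.5 FPKM. The falls were 2.14-fold, 2.28-fold and 2.43-fold (edgeR adjusted p = 3.16e-05, 0.000119 and 3.16e-05), and each of the 3 passed in all 17 alternative fits. Their log2 fold changes were -1.10, -1.19 and -1.28, and their neighbour medians were -0.30, -0.086 and -0.46. Relative to those medians the differences were -0.79, -1.11 and -0.82 (edgeR adjusted p = 0.00116, 0.000361 and 0.00312). MAP1LC3A fell by 1.23 on the log2 scale (edgeR adjusted p = 0.0212), and its edgeR adjusted p became 0.059 without OE-MMP28 replicate 2, 0.0804 without OE-MMP28 replicate 3 and 0.153 without Vector replicate 2. Relative to their neighbours, 6 of the list were lower and 1 higher at an edgeR adjusted p under 0.05, beside 8.02% and 7.42% of all genes tested.

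**Figure D5:**
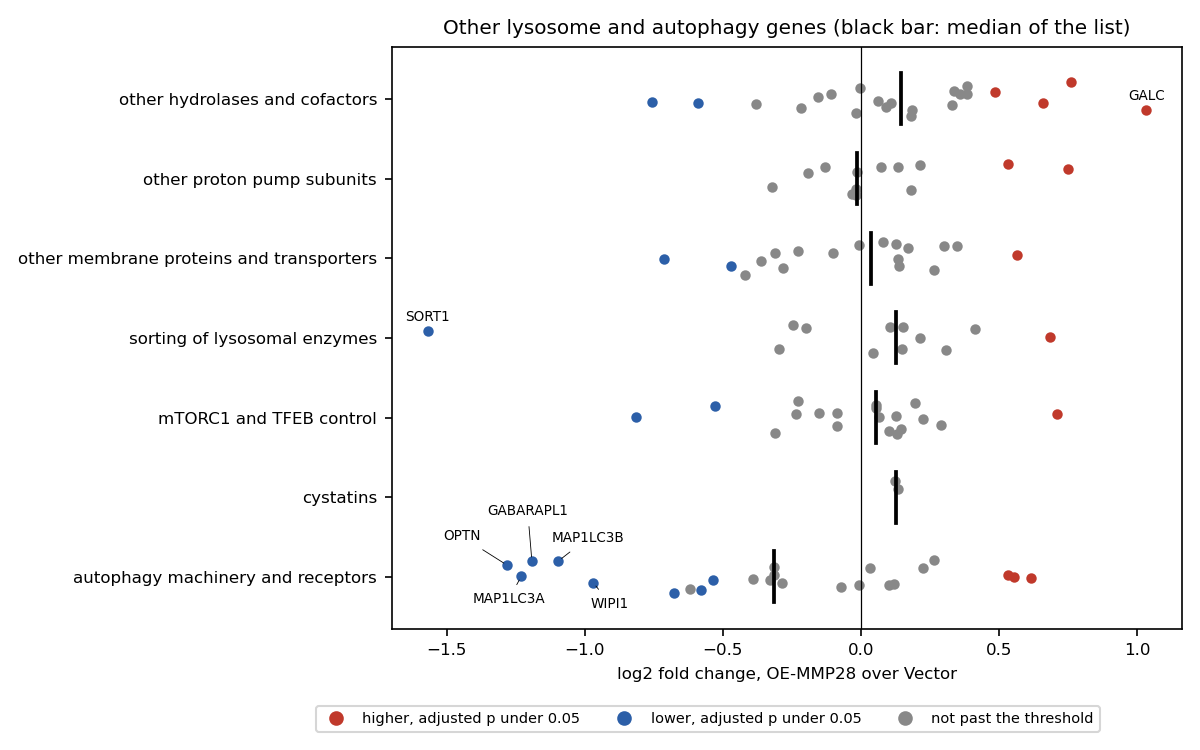
Log2 fold change of each tested gene of the 7 further lists, with the median of each list as a black bar and the vertical scatter within a list for legibility only. The autophagy list has the lowest median, -0.32, and SORT1 is the lowest gene of all lists at -1.57.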

How the data were processed

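Libraries were made from total RNA with a NEBNext Ultra kit, per the labels. The submitters' processing notes name HISAT2 2.0.5 and featureCounts 1.5.0-p3. The handling of reads that match several places, the use of strand and the genome build were not given in the sources used here. All 58735 gene identifiers, coordinates and strands of the table were the same as in GENCODE release 29 on GRCh38, and 58708 symbols were the same.

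The authors deposited read counts per gene and library, not normalized, and FPKM values, which are counts scaled by the authors to gene length and library total. The deposited table also held 5 columns of the authors' own comparison (group means, log2 fold changes, p-values), which were not used. Per-sample columns without a matching sample numbered 0. A count of 3, the limit that a count of 0 allows, corresponded to between 0.180 and 0.220 CPM. The interval of the pooled NEU1 ratio covers counting error only. Intervals of log2 fold changes come from the edgeR fit, which includes the spread between libraries.

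Groups and replicate numbers came from the sample titles. Counts were tested with edgeR 4.0.16 in R 4.3.3 (filterByExpr keeping genes at its minimum count of 10 and total of 15, TMM scaling, group as the only term, quasi-likelihood test, Benjamini-Hochberg adjustment over all 15319 genes tested, threshold 0.05). The study names limma for its comparisons, and limma 3.58.1 was an alternative here because counts were present. The other alternatives were leaving out each library, the replicate number as a block, upper-quartile and median-ratio scaling, no filter, a filter of 50 counts in at least 3 libraries, DESeq2 1.42.0, limma voom, limma with trend on log2(FPKM + 1) and log2(FPKM + 0.1) for genes whose mean was 0.5 FPKM or more, log2(FPKM + 1) with no filter, and an offset equal to the median log2 fold change of the other tested genes within 5 Mb on either side (at least 10). Fold changes on the log2(FPKM + pseudocount) scale understate those of low genes. The tests were checked on simulated counts. No pair of libraries agreed within sampling noise.

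The 40 members, the 7 further lists and the tests were chosen with earlier results of these data known. Singly named were members past the threshold plus TFEB, TFE3, LAMP1, LAMP2, CTSB, CTSD, CTSL, GRN and SQSTM1, and at most 4 genes past the threshold from each further list, of which 1 is not reported here. HEXA, CLN3, CTSS, LGMN and GUSB, and ATG7, RAB7A and UVRAG of the further lists, were given values beyond this rule after they were seen. Similar transcripts were searched with BLAST 2.17.0+ (at least 95% identity over 100 bases), and the stretches found covered at most 5.67% of the longest transcript of a member. Promoters were taken from the RefSeq table (GRCh38.p14).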

Additional observations from a re-analysis of the deposited data

How the results depend on the processing

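Of the 13 called members, 12 kept their direction in all 17 alternative fits in which they were tested, and NPC2 changed sign to -0.048 relative to its neighbours. Members higher numbered 6 in the reported fit, between 3 and 7 without one library, 3 with limma on log2(FPKM + 1) or log2(FPKM + 0.1) and 2, CTSC and NEU1, with log2(FPKM + 1) and no filter. Members lower numbered 7, between 3 and 6 without one library, and 4, 4 and 0 in those limma fits. Over all genes tested, between 985 and 1916 were higher and between 1044 and 1949 lower without one library. With limma, 1009 were higher and 965 lower on log2(FPKM + 1), and 1000 and 970 on log2(FPKM + 0.1). With log2(FPKM + 1) and no filter the numbers were 362 and 308. Further genes higher numbered 12, between 7 and 12 without one library, 1 with limma and no filter and 3 relative to neighbours. Further genes lower numbered 15, and 8 to 17, 5 and 8 under those alternatives. The median of the members lay between -0.017 and 0.042 without one library. MMP28 lay between 0.69 and 1.05 without one library, and with limma and no filter it was 0.84 (adjusted p = 0.0903). The cause of these changes was not tested.

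Members that changed sign were, apart from NPC2, not called in the reported fit. Relative to neighbours they were CTSB (0.054), CTSH (-0.055), LGMN (-0.58), GLA (-0.14) and LIPA (0.031). With upper-quartile scaling they were CTSH (-0.0036), LGMN (-0.0026), GLA (-0.0061) and ARSA (-0.046). ARSA was also -0.0078 with no filter, -0.0081 with limma voom, -0.019 with median-ratio scaling, -0.021 with the stricter filter and with both limma fits on log2(FPKM + 1), -0.024 with log2(FPKM + 0.1) and -0.013 with DESeq2. Without one library, CTSD ranged from -0.17 to 0.071, CTSH from -0.035 to 0.12, CTSV from -0.10 to 0.14, LGMN from -0.0016 to 0.099, GLA from -0.083 to 0.13, ARSA from -0.19 to 0.16, MAN2B1 from -0.12 to 0.035, MCOLN1 from -0.27 to 0.038, ATP6V0D1 from -0.079 to 0.26, ATP6V1A from -0.12 to 0.16 and SCARB2 from -0.22 to 0.034.

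Deviations of libraries with the same replicate number correlated at 0.0168, 0.00798 and -0.0876, so the numbers gave no sign of pairing. With the replicate block 6 members were higher and 9 lower, LIPA and SQSTM1 being added, and ARSA was -0.012. Over all genes tested that fit called 1844 higher and 1841 lower. Depth limited CLN3 (36 and 28 counts in the Vector and OE-MMP28 groups) and NEU1 (10 and 76, kept by the filter through the OE-MMP28 libraries), which limma on filtered FPKM did not test.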
